A study of Mus musculus with 12 samples.

Results

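The 9 transcription regulators of follicular helper T (Tfh) cells examined were Bcl6, Ascl2, Maf, Batf, Irf4, Tox, Tox2, Id3 and Pou2af1, and they were followed across 12 RNA-seq libraries of mouse CD4+ T cells. The 9 genes were picked by name as known regulators of this lineage, with earlier results of these data known, out of 25793 genes in the table of read counts. All 9 were among the 7542 genes with enough reads to be tested. The libraries came from OT-II T cells of C57BL/6 background, which carry a transgenic receptor for an ovalbumin peptide. They were either wild type (WT, 6 libraries) or homozygous for a Pdcd1 knock-in allele (Pdcd1KI/KI, here KI, 6 libraries); Pdcd1 encodes the inhibitory receptor PD-1, and the labels do not say what the allele changes. Cells of both genotypes had been transduced with GFP, transferred to B6 mice along with dsRed-expressing MD4 B cells (specific for hen egg lysozyme) and exposed to a subcutaneous HEL-OVA immunization. CXCR5-high OT-II cells were sorted on day 5, and 100 to 200 sorted cells were lysed per library and amplified by a method derived from single-cell RNA-seq. The labels give neither the age of the mice nor the number of mice behind a library.

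Each library title carries a first number, 1 or 2, and a second number, 1 to 3, in both genotypes. The labels do not say what either number stands for. Libraries sharing a first number are called set 1 and set 2 here, so each set holds 3 WT and 3 KI libraries, and a library is named by genotype and both numbers (KI 2-3). This layout gives 3 comparisons: KI against WT, set 2 against set 1, and whether the KI difference was the same in both sets. The labels do not say that the libraries came from separate animals, so p-values measure only the spread between these libraries, which may be technical.

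Tfh cells are CD4+ T cells that enter B cell follicles and help B cells in germinal centres. Their lineage depends on Bcl6, a zinc finger repressor that opposes the programmes of other helper subsets and of Prdm1 (Blimp-1). Batf, an AP-1 family factor, and Irf4, an interferon regulatory factor, bind composite DNA elements together and act early after T cell activation, while Maf favours production of the Tfh cytokine IL-21. Ascl2 is a basic helix-loop-helix factor that can switch on Cxcr5, Tox and Tox2 are HMG-box proteins, and Pou2af1 (OBF-1) is a coactivator of octamer-binding proteins. Id3 blocks E proteins, the basic helix-loop-helix factors that bind E boxes, and is known as a brake on Tfh formation.

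Library depth lay between 717506 (WT 1-3) and 1801504 (KI 2-2) reads counted on genes, and the 9 regulators together took between 482 and 1697 reads per library. A floor of 3 reads corresponded to between 1.44 and 5.29 CPM (reads scaled to a common library size). Amplified reads without molecular identifiers are not independent molecules, so read counts bound counting error only. In small bulk pools, fewer expressing cells and less RNA per cell cannot be told apart. Over the 12 libraries all 11 T cell markers were detected, with Cd4 between 289 and 534 CPM, and the library sums ran from 5685 to 7819 CPM. The 11 include 2 CD8 genes. Cd8a had reads in 7 of the 12 libraries, at most 16.3 CPM, and Cd8b1 in all 12, at 2.03 to 48.8 CPM. Of 10 B cell markers, Pax5 was at 0 in every library and the sums ran from 137 to 309 CPM in WT and from 111 to 221 CPM in KI, where Ebf1 and Cd72 were also at 0. The edited gene, Pdcd1, averaged 288 ± 149 CPM across WT libraries and 69.0 ± 46.5 CPM across KI libraries (SD, n = 6 each), without overlap between the genotypes (163 to 515 against 21.1 to 128 CPM).

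Start-site windows from RefSeq (GRCm38.p6; 250 bases before to 50 after a start) were found for 7 of the 9 genes, in 12 windows of 300 bases. Maf and Tox had none. The stretches before the start are printed for Bcl6, the defining factor of the lineage, and for Batf and Tox2, the genes that fell between the sets. Each is given 5′ to 3′ on its gene's strand, for the first start listed, with E boxes (CANNTG, which reads the same way on both strands) in capitals. Bcl6 lies on the minus strand at chr16:23988853-23989102, Batf on the plus strand at chr12:85686470-85686719 and Tox2 on the plus strand at chr2:163202877-163203126.

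Bcl6: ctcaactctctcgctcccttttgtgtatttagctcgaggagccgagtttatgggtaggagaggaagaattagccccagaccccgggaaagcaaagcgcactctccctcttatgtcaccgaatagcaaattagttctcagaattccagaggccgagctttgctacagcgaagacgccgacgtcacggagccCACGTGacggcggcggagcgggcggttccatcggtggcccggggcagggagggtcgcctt
Batf: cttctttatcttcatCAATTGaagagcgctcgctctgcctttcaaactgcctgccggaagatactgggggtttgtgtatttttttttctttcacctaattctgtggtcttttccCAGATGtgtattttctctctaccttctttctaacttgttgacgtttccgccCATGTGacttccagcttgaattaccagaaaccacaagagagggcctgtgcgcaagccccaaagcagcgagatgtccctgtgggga
Tox2: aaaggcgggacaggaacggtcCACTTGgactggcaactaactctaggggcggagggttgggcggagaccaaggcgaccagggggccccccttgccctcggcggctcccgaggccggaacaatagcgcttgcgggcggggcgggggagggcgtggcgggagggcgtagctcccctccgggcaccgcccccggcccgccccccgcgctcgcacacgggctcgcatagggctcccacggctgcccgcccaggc

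The E boxes began 60 bases before the start in Bcl6, 235, 136 and 85 bases before it in Batf, and 229 bases before it in Tox2. At least 1 E box was present in a window of 6 of the 7 genes, all but Id3. Such a match is common, since 72.3% of all 32851 RefSeq mouse windows of this length hold one. That share is per window, whereas the 6 of 7 counts genes, some with more than 1 window. The AP-1 element bound by Batf-containing dimers (TGANTCA, searched on both strands) was in no window of the 7 genes and in 7.81% of all windows. These matches describe letters in short windows and not binding.

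Per unit of transcript length, Id3 was the most abundant of the 9 transcripts and Bcl6 the least. Mean FPKM over the 12 libraries (fragments scaled by transcript length and depth) was 346 ± 90.5 (SD, n = 12) for Id3, 70.9 ± 44.9 for Batf and 24.1 ± 10.3 for Tox. Pou2af1 followed at 23.0 ± 8.01 FPKM, then Maf at 13.1 ± 5.14, Ascl2 at 8.10 ± 5.45, Tox2 at 7.20 ± 4.34, Irf4 at 4.53 ± 2.02 and Bcl6 at 1.67 ± 1.22. Id3 ranked first in all 12 libraries, and Bcl6 ranked last in 11 of them; in KI 2-1 it was above Irf4.

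Neighbours in this order were compared by exact two-sided sign-flip permutation tests on log2(FPKM + 1) over the 12 libraries. The p-values were adjusted over 8 pairs, and the smallest possible raw p is 0.0004883. Order and pairs were set by these same values, so the direction of each difference was given in advance. FPKM per CPM of a single gene also varied between libraries, by 1.54-fold for Id3 and 2.28-fold for Tox2. Id3 exceeded Batf (adjusted p = 0.00195), Batf exceeded Tox (0.00391), Pou2af1 exceeded Maf (0.00195), Maf exceeded Ascl2 (0.0234) and Irf4 exceeded Bcl6 (0.00391). Tox and Pou2af1 did not differ beyond their spread (exact permutation, adjusted p = 0.724), nor did Ascl2 and Tox2 (0.591) or Tox2 and Irf4 (0.158). The levels also differed in how widely they varied: the highest library stood 2.83-fold above the lowest for Id3 and 7.37-fold for Batf. For Bcl6 this ratio was 23.9, between 0.163 and 3.91 FPKM, on only 2 to 25 reads.

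**Figure D1:**
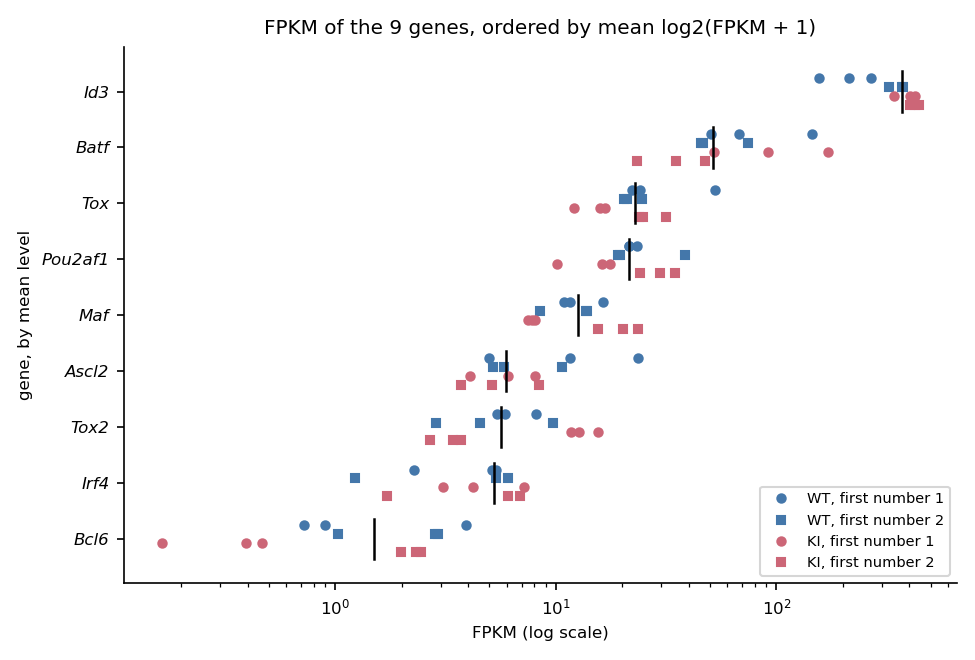
FPKM of the 9 regulators in each of the 12 libraries on a log axis, ordered by mean level; blue is WT, red KI, circles set 1, squares set 2 and black lines the medians. Id3 lies highest at 157 to 444 FPKM and Bcl6 lowest at 0.163 to 3.91 FPKM.

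Between genotypes, 0 of the 9 regulators passed the test, whereas between the sets Batf and Tox2 were both lower in set 2. Id3 had the smallest genotype p of the 9 and was higher in KI; its unadjusted p alone fell under 0.05. In edgeR's quasi-likelihood test with Benjamini-Hochberg adjustment over all genes, 2 of the 7542 genes differed between KI and WT, which is 0.0265%. DESeq2 and limma-voom also called 0 of the 9. Unadjusted p was under 0.05 for 5.4% of all genes. The median log2 difference (KI minus WT) was -0.10 over the 9 genes and 0.02 over all tested genes. In simulated counts with known changes, this edgeR fit called 9.38% of 2-fold and 74.2% of 4-fold changes. A regulator that was not called is therefore not shown to be unchanged.

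The set comparison, with genotype in the model, called 16% of all tested genes and 7.54% as lower in set 2, against 2 of the 9 regulators, both lower. For the difference of the KI effect between sets, 0 of 9 were called and the background was 0%. An unadjusted p under 0.05 was reached there by 3 of the 9 (Maf, Tox and Pou2af1) and by 7.21% of all genes; DESeq2 and limma-voom called 0 of the 9.

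**Figure D2:**
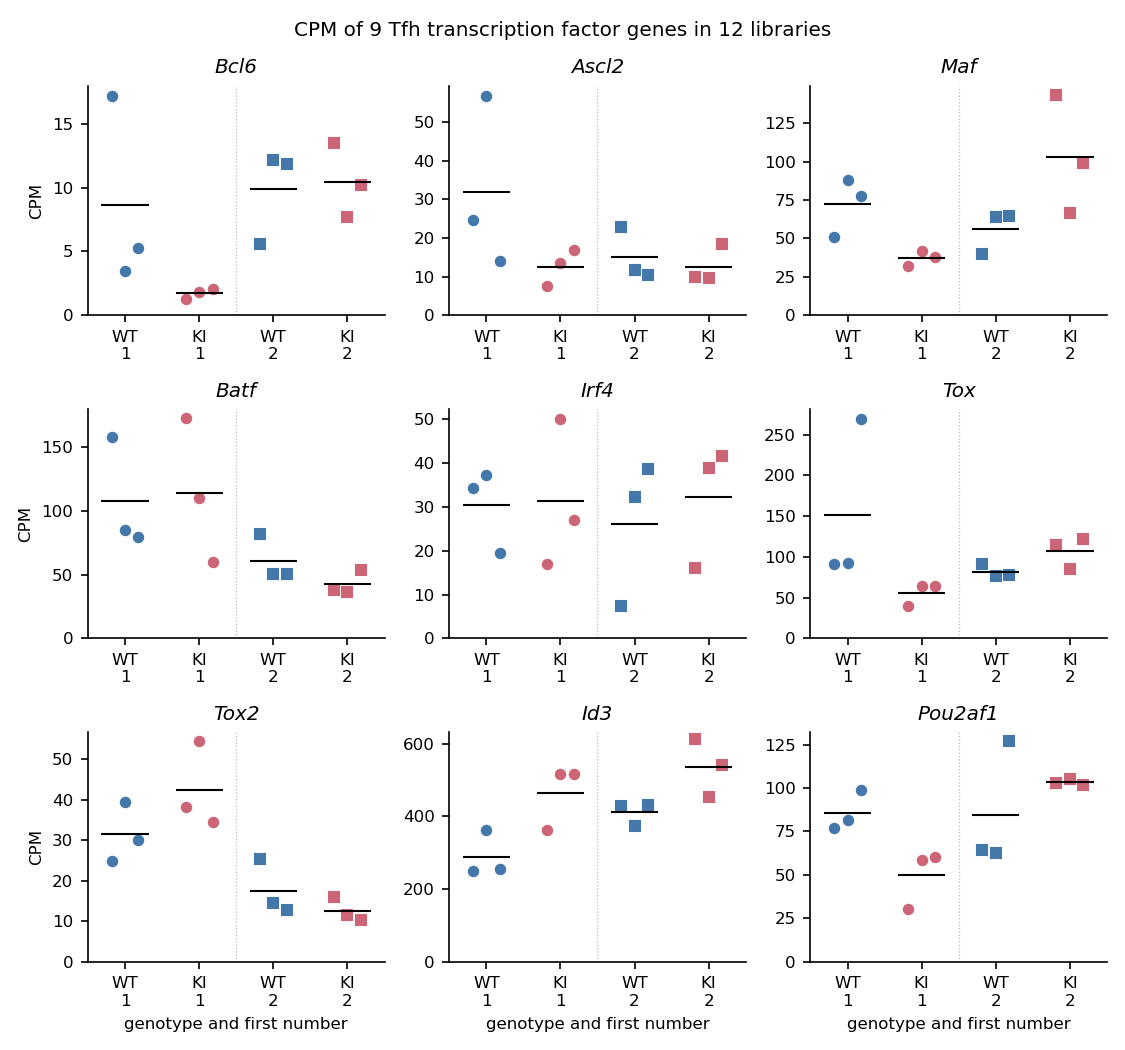
TMM-scaled CPM of each regulator in the 12 libraries, split by genotype and first title number; each point is a library and each black line the mean of 3 libraries. Batf and Tox2 sit lower in set 2 in both genotypes, while KI lies below WT for Maf and Tox in set 1 and not in set 2.

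Bcl6 (chromosome 16, 23965138 to 23988938, minus strand; all gene positions are on NCBIM37, equal to the mm9 build of the files) was near the detection floor in most of set 1. In WT it measured 17.2, 3.49 and 5.29 CPM in set 1 and 5.56, 12.2 and 11.9 CPM in set 2. In KI it measured 1.25, 1.83 and 2.03 CPM in set 1 and 13.5, 7.68 and 10.2 CPM in set 2. All 3 KI libraries of set 1 lay below the 3 WT libraries, but 5 of these 6 libraries held only 2 or 3 Bcl6 reads, so the order among those 5 was not resolvable at this depth; WT 1-1 held 25. In set 2, with 9 to 22 reads per library, the genotypes overlapped.

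The log2 difference of Bcl6 between KI and WT was -0.67 (SE 0.65, 95% interval -1.93 to 0.59; edgeR adjusted p = 0.947), and without WT 1-1 it was -0.40. Within set 2 it was 0.07 (SE 0.77). Set 1 alone left too few reads for Bcl6 to enter the fit. The set 2 to set 1 difference was 1.22 (SE 0.64; adjusted p = 0.201), and the difference of the KI effect between sets was 2.42 (SE 1.17; unadjusted p = 0.0503, adjusted 0.69).

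Batf (chromosome 12, 87027619 to 87050037, plus strand), the AP-1 partner of Irf4, had overlapping levels in KI and WT and was lower in set 2. In WT it measured 158, 84.8 and 79.3 CPM in set 1 and 81.6, 50.4 and 50.6 CPM in set 2. In KI it measured 173, 109.9 and 59.6 CPM in set 1 and 38.1, 36.5 and 53.9 CPM in set 2. Only WT 2-1 in set 2 reached into the range of set 1, so 5 of the 6 set 2 libraries were below all of set 1.

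Batf fell by 1.12 on the log2 scale from set 1 to set 2 (SE 0.28, 2.17-fold lower; edgeR adjusted p = 0.00878), from 111 ± 45.6 to 51.8 ± 16.2 CPM (SD, n = 6 each). The call held in each fit that left out 1 library, with adjusted p between 0.00503 and 0.0331. With the deposited FPKM values in limma the log2 difference was -0.99 and the adjusted p was 0.0643. The KI minus WT difference was -0.10 (SE 0.38, interval -0.84 to 0.65; adjusted p = 0.985), with 0.07 in set 1 and -0.50 in set 2.

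Irf4 (chromosome 13, 30841095 to 30858796, plus strand), which pairs with Batf on DNA, did not pass the test in either comparison. It ranged from 7.42 to 38.7 CPM in WT (median 33.3) and from 16.0 to 50.1 CPM in KI (median 33.0). The lowest library was WT 2-1, with 12 reads, and the highest KI 1-2, with 82. The log2 difference was 0.18 (SE 0.42, interval -0.66 to 1.01) for KI against WT and -0.09 (SE 0.41) for set 2 against set 1, both with edgeR adjusted p above 0.9 (0.971 and 0.912).

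Maf (chromosome 8, 118206842 to 118231694, minus strand), which favours IL-21 production, was the only regulator whose genotypes separated completely in both sets and in opposite order. In set 1, WT measured 50.9, 88.3 and 77.6 CPM and KI 31.9, 41.5 and 37.9 CPM. In set 2, WT measured 40.2, 63.7 and 64.7 CPM and KI 144, 66.7 and 98.9 CPM. All KI libraries were thus below WT in set 1 and above WT in set 2, an order found in 16 of all tested genes (0.212%). Counting both directions, the genotypes separated in opposite order in 39 genes (0.517%).

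The KI minus WT difference of Maf was 0.12 overall (SE 0.35; edgeR adjusted p = 0.975), -0.96 in set 1 (SE 0.39; adjusted p = 0.429) and 0.87 in set 2 (SE 0.35; adjusted p = 0.912). The difference between these effects was 1.81 (SE 0.51, interval 0.81 to 2.82; unadjusted p = 0.00185) and did not pass the adjustment over all genes (0.334). Without KI 2-1, the highest Maf library, the overall KI minus WT value was -0.21. Maf exons overlap those of Gm15655 on the opposite strand, and no strand setting is given in the sources used here, so their reads cannot be told apart.

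Ascl2 (chromosome 7, 150152727 to 150155169, minus strand), the inducer of Cxcr5, had a lower mean in KI, which rested largely on 1 WT library. It ranged from 10.4 to 56.9 CPM in WT (median 18.5) and from 7.51 to 18.4 CPM in KI (median 11.6). WT 1-2 was the highest at 56.9 CPM, with the next WT library at 24.7, and 3 KI libraries were below every WT library. The log2 difference was -0.88 (SE 0.49, interval -1.84 to 0.08; edgeR adjusted p = 0.919), and -0.42 without WT 1-2. It was -1.35 in set 1 and -0.24 in set 2.

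Tox (chromosome 4, 6613500 to 6918704, minus strand), an HMG-box factor, was lower in KI in set 1. There, WT measured 91.4, 93.0 and 269.7 CPM and KI 40.1, 64.7 and 64.3 CPM, with no overlap. In set 2, WT measured 91.5, 77.1 and 77.3 CPM and KI 114, 85.4 and 121 CPM, with KI 2-2 inside the WT range. The WT 1-3 value stood apart from the next WT value of 93.0 CPM. That library also had the fewest counts, the highest summed level of 8 myeloid markers (212 CPM against at most 46.4 CPM in the other libraries, with Itgax, Fcgr1, Cd14 and Clec9a at 0) and the largest share of reads mapped to several places (43.8%); their part in its Tox value was not tested.

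The KI minus WT difference of Tox was -0.50 (SE 0.34, interval -1.16 to 0.16; edgeR adjusted p = 0.937), and -0.08 without WT 1-3. It was -1.42 in set 1 (SE 0.42; adjusted p = 0.232) and 0.38 in set 2 (SE 0.28; adjusted p = 0.941). The difference between these effects was 1.78 (SE 0.52, interval 0.76 to 2.80; unadjusted p = 0.00236, adjusted 0.345), and it was 1.08 without WT 1-3. As for Maf, an antisense transcript (Gm11802) shares exonic bases with Tox.

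Tox2 (chromosome 2, 163028861 to 163149906, plus strand), the other HMG-box member, fell together with Batf between the sets. In set 1 it measured 24.7, 39.5 and 30.0 CPM in WT and 38.2, 54.3 and 34.5 CPM in KI. In set 2 it measured 25.3, 14.4 and 12.6 CPM in WT and 16.0, 11.5 and 10.2 CPM in KI. As with Batf, WT 2-1 alone overlapped set 1.

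Tox2 fell by 1.30 on the log2 scale from set 1 to set 2 (SE 0.37, 2.46-fold lower; edgeR adjusted p = 0.0207), from 36.9 ± 10.1 to 15.0 ± 5.45 CPM (SD, n = 6 each). The adjusted p rose to 0.0576 without KI 1-2 and to 0.0599 without KI 2-2, and it was 0.0777 with FPKM values in limma. KI against WT gave 0.19 (SE 0.46, interval -0.72 to 1.10; adjusted p = 0.971), with 0.43 in set 1 and -0.49 in set 2. Tox itself differed by 0.02 between the sets (SE 0.33; adjusted p = 0.971).

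Id3 (chromosome 4, 135699412 to 135701670, plus strand), the inhibitor of E proteins, was the regulator with the largest KI difference relative to its error. In set 1 it measured 250.2, 361 and 256 CPM in WT and 361, 517 and 518 CPM in KI. In set 2 it measured 429, 373 and 431 CPM in WT and 613, 453 and 540.2 CPM in KI. In 5 of the 6 KI libraries Id3 was above every WT library; KI 1-1 was level with WT 1-2.

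Id3 averaged 350.0 ± 80.3 CPM over the WT libraries and 500.3 ± 85.3 CPM over the KI libraries (SD, n = 6 each). The log2 difference was 0.51 (SE 0.19, 1.43-fold, interval 0.13 to 0.89), with an unadjusted p of 0.0155 that did not pass adjustment over all genes in edgeR (0.916). It was 0.68 in set 1 (SE 0.23; adjusted p = 0.325) and 0.38 in set 2 (SE 0.22; adjusted p = 0.916), and between 0.43 and 0.59 when single libraries were left out. With the set in the model, the KI minus WT difference of Id3 was 0.53 (SE 0.16, interval 0.23 to 0.84). Its unadjusted p there was 0.00256 and its edgeR adjusted p 0.297, so it was not called. Unadjusted p was under 0.05 for 8.33% of all genes in that fit. The difference of effects between sets was -0.31 (SE 0.31; adjusted p = 0.897). Set 2 against set 1 gave 0.35 (SE 0.16; adjusted p = 0.129).

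Pou2af1 (chromosome 9, 51021795 to 51048184, plus strand), the octamer coactivator, followed the order seen for Maf and Tox in set 1. There, WT measured 77.0, 81.3 and 98.7 CPM and KI 30.1, 58.6 and 60.2 CPM, with all KI below all WT. In set 2, WT measured 64.3, 62.6 and 127 CPM and KI 103, 105 and 102 CPM, so the KI values lay close together inside the wide WT range. The KI minus WT difference was -0.15 (SE 0.30, interval -0.75 to 0.44; edgeR adjusted p = 0.969), -0.79 in set 1 and 0.29 in set 2. The difference between these effects was 1.07 (SE 0.49; unadjusted p = 0.0393, adjusted 0.676).

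Counted over the 9 genes, KI stood below WT without overlap in set 1 for Maf, Tox and Pou2af1, and in CPM also for Bcl6, where equal read counts leave the order to library depth. By CPM 7.81% of all tested genes did so, and 7.82% stood above WT, where none of the 9 did. In set 2, all KI lay above all WT for 2 (Maf and Id3), against 5.6% of all genes, and below for 0, against 5.83%. Fitted within a set, 0 of the 8 regulators tested in set 1 and 0 of 9 in set 2 were called in edgeR, where the background was 0.0403% and 0.0126%. At an unadjusted p under 0.05 these were Maf, Tox, Id3 and Pou2af1 in set 1, against 9.44% of all genes, and Maf in set 2, against 5.17%.

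Within one genotype, the set comparison called 0 of 9 in WT (background 5.01%) and 2 in KI, Maf and Batf (background 4.66%). In KI alone Maf rose by 1.47 on the log2 scale from set 1 to set 2 (edgeR adjusted p = 0.0274), while in WT alone its value was -0.38 (adjusted p = 0.589). Batf gave -1.41 in KI and -0.86 in WT, and Tox2 gave -1.76 and -0.87. The interaction test above is the test of whether these differ, and it called none of the 9 after adjustment.

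**Figure D3:**
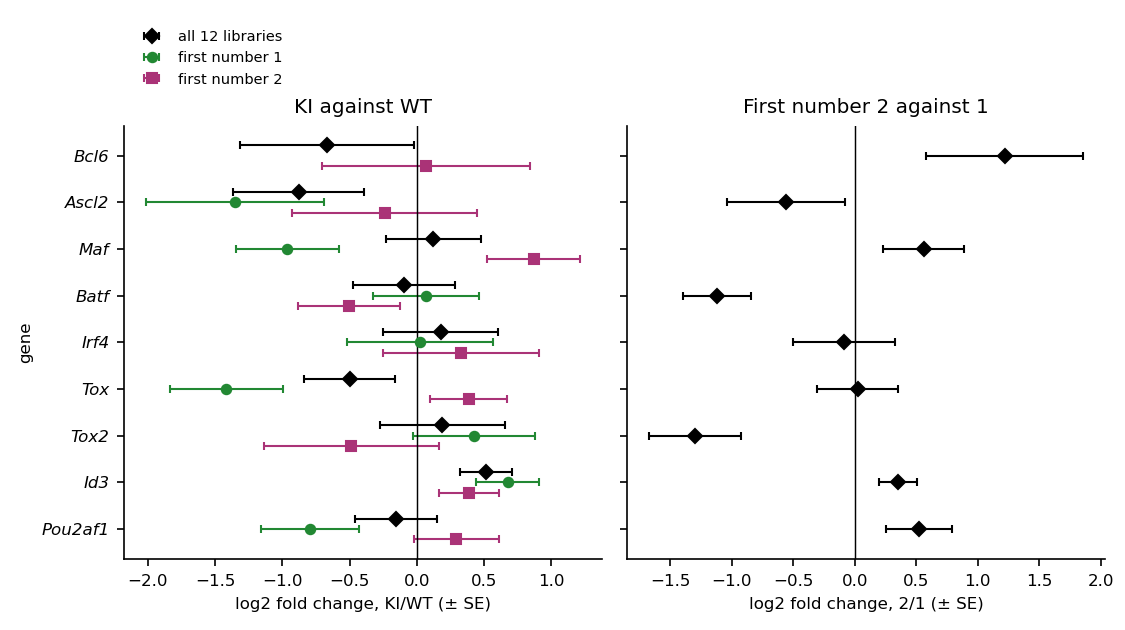
Log2 differences with standard errors for each regulator, for KI against WT over all libraries and within each set, and for set 2 against set 1. Maf, Tox and Pou2af1 lie below 0 in set 1 and above 0 in set 2, Id3 lies above 0 in both, and Bcl6 has no set 1 estimate because its reads there were too few.

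The summed level of cytotoxic cell markers moved with the sets, and within set 2 also with genotype. Of 10 such genes, Klrc1 and Ncr1 were at 0 throughout, Gzma and Klrd1 were also at 0 in set 1 and Klrg1 in set 2, and the summed level was 65.1 to 222 CPM in set 1 and 251 to 703 CPM in set 2, without overlap. Within set 2 the sum was 612, 522 and 703 CPM in WT and 424, 372 and 251 CPM in KI, without overlap. In set 1 the genotypes overlapped. Over the 12 libraries the median was 168 CPM for Nkg7, 30.4 for Ccl5, 16.5 for Gzmk, 3.87 for Prf1 and 0 for the others. The part of these markers in the fall of Batf and Tox2 was not tested.

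Binding partners and relatives of the 9 regulators were followed as a list of 23 genes, of which 14 had enough reads. Between genotypes 0 of the 14 passed the test, with a median log2 difference of -0.16 against 0.02 over all genes. Pou2f1, an octamer-binding protein that recruits Pou2af1, ran from 11.6 to 40.2 CPM in WT and from 9.12 to 16.5 CPM in KI (log2 difference -1.10; unadjusted p = 0.0177, edgeR adjusted 0.916), and its relative Pou2f2 averaged 80.4 ± 19.3 and 91.9 ± 25.8 CPM (SD, n = 6 each). Between sets, where 16% of all genes changed, 3 of 14 rose and 0 fell: Tcf12, an E protein that Id3 can block, by 1.76 on the log2 scale (27.2 ± 12.6 to 94.7 ± 44.6 CPM; adjusted p = 0.00134), and the Bcl6 corepressor Ncor1 and the ubiquitin ligase scaffold Cul3 by 0.62 and 1.16 (both adjusted p = 0.00971). The other E protein tested, Tcf3, gave -0.47 (adjusted p = 0.264), Id2 gave -0.96 (0.231) and Junb, an AP-1 partner of Batf, gave -0.28 (0.462).

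Among 12 other factors that favour Tfh cells, 11 were tested and 0 differed by genotype, with a median of 0.07. Tcf7 (TCF-1), which acts upstream of Bcl6, was the most abundant of them, with 2633 ± 336 CPM for WT against 3008 ± 632 CPM for KI (SD, n = 6 each; edgeR adjusted p = 0.947), and Lef1 measured 39.7 ± 11.5 and 31.2 ± 9.42 CPM. From set 1 to set 2, Rbpj, the DNA-binding partner of Notch, rose by 1.67 (18.4 ± 2.42 to 58.5 ± 21.3 CPM; adjusted p = 0.00116) and Stat4, a cytokine-activated factor, by 0.69 (adjusted p = 0.0127). None of the 11 fell, so 2 of 11 changed beside 16% of all genes, and the median was -0.24 against 0.01 over all genes.

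Of 15 factors that oppose the Tfh fate or specify other helper subsets, 10 were tested and 0 differed by genotype (median -0.11). Prdm1, the repressor antagonised by Bcl6, averaged 1.5 reads per library and was not testable. Only Eomes, a T-box factor of cytotoxic and memory cells, changed between sets (1 of 10, beside 16% of all genes), from 20.5 ± 18.5 to 97.1 ± 84.3 CPM (rose by 2.11; edgeR adjusted p = 0.0134), beside the cytotoxic markers given above. The median over the 10 was -0.15.

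A last list held 22 surface receptors, cytokines and adaptors that Tfh factors switch on or off, so its medians mix both kinds. Of these, 19 were tested, and 0 differed by genotype (median 0.03). Pdcd1 had a log2 difference of -2.05 with an edgeR adjusted p of 0.231. With the set in the model, Pdcd1 passed the test (-2.24, adjusted p = 7.65e-06), as 1 of 4 genes called among all tested (0.053%), while 0 of the 9 regulators did. Between sets 8 of the 19 changed, where 16% of all genes did. Cxcr5, the receptor used in the sort and a target of Ascl2, fell by 0.72 on the log2 scale (734 ± 56.1 to 446 ± 74.9 CPM; adjusted p = 0.00208), S1pr2, a migration receptor of follicular T cells, by 1.25 (0.00121) and Pdcd1 by 1.56 (8.4e-05). The 5 that rose were the adhesion receptor gene Slamf6 by 0.87 (0.000791), its adaptor Sh2d1a by 0.74 (0.00257), Btla by 1.24 (0.00222), Icos by 0.76 (0.0158) and the oxysterol receptor gene Gpr183 by 0.89 (0.00224). The median over the 19 was 0.15.

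**Figure D4:**
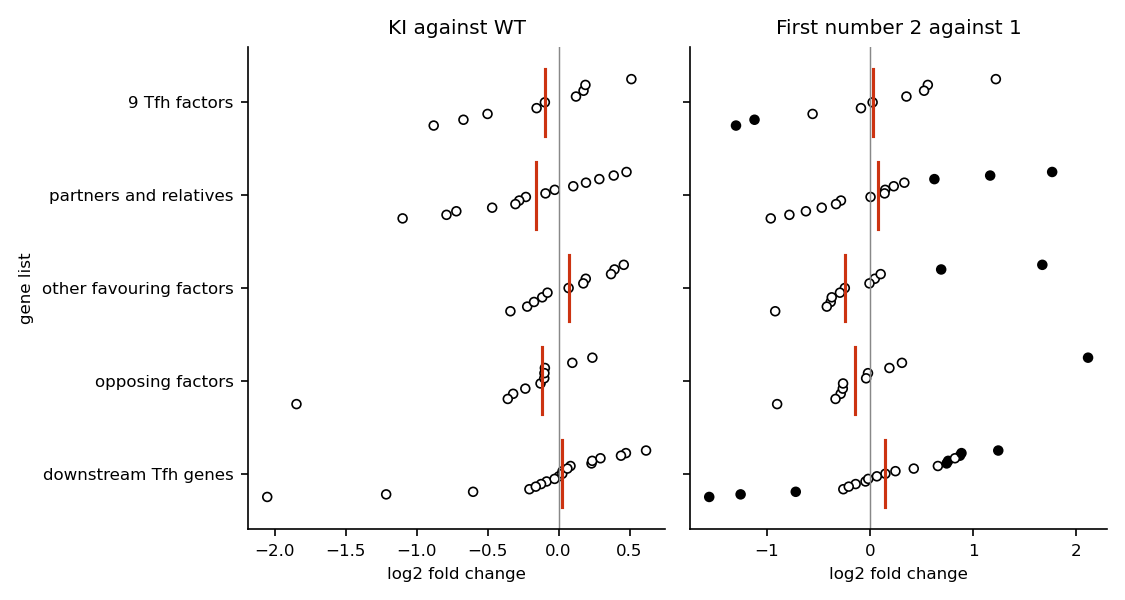
Log2 differences of the tested genes of each list, for KI against WT and for set 2 against set 1; filled points passed an adjusted p of 0.05 and the red bar is the list median. No list gene is filled for genotype in this fit, which leaves the set out of the model (with it, Pdcd1 passed), while Batf and Tox2 among the 9 regulators and 14 genes of the other lists are filled for the sets.

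For the 8 regulators averaging at least 20 reads, the genes with the most similar profile across the 12 libraries were found by Pearson correlation of log2 CPM after centring each set, among up to 3781 genes. All values share libraries, depth and amplification, and they serve as a description. Id3 was closest to Zdhhc18 (r = 0.97), Ier2, an immediate early gene (0.92), and Clta, the clathrin light chain A gene (0.89). Maf was closest to LOC100503946 (0.94), LOC100504272 (0.93) and Skap1, a T cell adaptor gene (0.92), and Tox to Mlxip (0.95), Gm10051 (0.93) and LOC100503483 (0.90). Tox2 was closest to Chmp1a (0.92), Batf to Stim1, the calcium sensor of the endoplasmic reticulum (0.88), Irf4 to Atp9b (0.87), Pou2af1 to Itm2a (0.86) and Ascl2 to Ap3m1 (0.83). Without the centring, r was 0.53 for Zdhhc18, 0.34 for Ier2, 0.33 for Skap1, 0.64 for Chmp1a and 0.17 for Ap3m1, and between 0.73 and 0.91 for the other genes named. With this many genes screened over 12 libraries, high values arise readily, and Bcl6 had too few reads for this description.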

How the data were processed

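Sequencing reads from 12 libraries (6 WT, 6 KI) were deposited by the authors as raw read counts per gene symbol and as FPKM values. Per the submitters' processing notes, CASAVA, TopHat2, Cufflinks, HTSeq and DESeq2 were used with build mm9; versions, annotation and strand setting are not given in the sources used here. The count table held 25793 genes and 5 summary entries, which were left out. Multiply mapped reads, 26.7 to 43.8% per library, were among these. FPKM rows with repeated names (28 rows beyond the first of each name) were summed.

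Counts were fitted in R 4.3.3 with edgeR 4.0.16 (filterByExpr, TMM scaling, glmQLFit, glmQLFTest) over all 7542 genes that passed the filter, with Benjamini-Hochberg adjustment and a threshold of 0.05. Standard errors were derived from each F statistic, and 95% intervals are 1.96 standard errors wide on each side. Alternatives were DESeq2 1.42.0, limma 3.58.1 (voom on counts, or with trend on log2(FPKM + 1)), other scalings and filters, blocks and leaving out each library; for the interaction, upper-quartile scaling, no filter, FPKM and leaving out libraries were added after seeing the data. Scripts were tested on simulated data with known changes. In these, the edgeR interaction fit called 0% of 2-fold and 22.2% of 4-fold changes. The set comparison called 27.7% and 83.9%. No regulator fell below the filter. The 30 same-genotype pairs of libraries all differed by more than sampling noise (chi-square over its degrees of freedom 8.58 to 37.0).

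The 9 regulators and the gene lists were chosen with earlier results of these data known. Named besides the 9 are list genes past the threshold (at most 6 per list and direction), 10 fixed genes and, for likeness, up to 3 genes per regulator.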

Additional observations from a re-analysis of the deposited data

Results flagged for a closer look

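Of 18 groups of 6 libraries (9 regulators in each genotype), 3 were picked out because the highest value of a regulator lay far from the rest by Dixon's criterion, which chance meets in about 1 of 20 groups. Ascl2 was at 56.9 CPM in WT 1-2, where the other WT libraries held 10.4 to 24.7 CPM. Batf was at 158 CPM in WT 1-1, where the others held 50.4 to 84.8 CPM. Tox was at 269.7 CPM in WT 1-3, where the others held 77.1 to 93.0 CPM.

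Maf was picked out because its KI libraries were all below WT in set 1 and all above WT in set 2. The difference between the KI effects, 1.81 on the log2 scale, had an unadjusted p of 0.00185 and an edgeR adjusted p of 0.334.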

How the results depend on the processing

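The count of 0 regulators changed by genotype, or differing in their genotype effect between sets, was 0 under every alternative run, though the filter at a mean of 50 counts tested only 5 regulators and set 1 alone only 8. For the interaction, the adjusted p over the edgeR, DESeq2 and limma alternatives ran from 0.055 to 0.67 for Tox and from 0.108 to 0.67 for Maf. With single libraries left out in edgeR it ran from 0.1074 to 0.7135 for Tox and from 0.1234 to 0.7135 for Maf. For set 2 against set 1 the count of 2 fell to 0 with FPKM values (pseudocount 1 or 0.1) and to 0 in WT libraries only. In KI libraries only, with the same number of libraries, Maf and Batf were called. The count was 1 to 2 when single libraries were left out. With a filter of a mean of at least 50 counts, Batf and Id3 (0.41, adjusted p = 0.041) were called. FPKM (pseudocount 1 and 0.1) shifted the median of all genes by 0.07 and 0.10 in this comparison, and by -0.27 and -0.32 in the interaction, where DESeq2 shifted it by 0.10.

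The sign of some KI minus WT values changed between fits, and the cause was not tested. Maf went to -0.061 with limma-voom, -0.019 with the first number as replicate block and -0.048 with both numbers as replicate block. Tox2 went to -0.0091 with the first-number block. In set 1 alone Maf was -0.96 and Batf 0.067. In set 2 alone Bcl6 was 0.069 (-0.67 over all libraries), Tox 0.38 (-0.50 over all libraries), Tox2 -0.49 and Pou2af1 0.29. For set 2 against set 1, Tox was -0.11 without the genotype term; in WT only Maf was -0.38, Tox -0.89 and Pou2af1 -0.042; in KI only Ascl2 was 0.012 and Irf4 0.066. With single libraries left out, KI minus WT ranged from -0.49 to 0.19 for Batf, -0.027 to 0.31 for Irf4, -0.27 to 0.013 for Pou2af1, -0.12 to 0.37 for Tox2 and -0.21 to 0.27 for Maf. The set difference ranged from -0.19 to 0.43 for Tox and -0.24 to 0.12 for Irf4, and the interaction of Irf4 from -0.15 to 0.80.

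The paired numbers gave correlations of deviations from 0.0828 to 0.258 over 6 same-number pairs, and 4 of 12 libraries correlated best with their own number, so they were not taken as pairs. With the first number as replicate block, Id3 was 0.53 (SE 0.16; edgeR adjusted p = 0.297), 0 of 9 regulators were called, and genes called overall went from 2 to 4, Pdcd1 among the 4. Genes called by genotype numbered 14 with DESeq2, 4 without a filter, 3 with both numbers as block and 0 to 2 with single libraries left out; by set, 782 with FPKM and a pseudocount of 0.1, 381 in WT and 359 in KI; by interaction, 25 with DESeq2, 140 without a filter and 24 without WT 1-1. Depth limits Bcl6, at 2 to 25 reads.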
